A study of Danio rerio with 6 samples.

Results

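The genes described here carry the symbols of voltage-gated sodium channels, voltage-gated calcium channels and potassium channels, and were taken from the deposited gene list as every symbol that starts with kcn or cacn, or with scn followed by a digit. The rule gave 175 of 25109 features, which carry 170 distinct symbols, since 8 features share 3 symbols. The reference gives another gene's name to the identifiers of 2 of these, *cacna1db_1* (cfap74, 78 UMIs in the 6 classes below) and *kcnj11l_2* (cd59b, 7 UMIs), so their identity as channels is uncertain. *cacna1db_1* was tested among the calcium pores and passed in no comparison. A further 9 channel symbols written in capitals fell outside the rule. Expression was measured by 10x 3′ single-cell RNA sequencing of FACS-sorted eye cells of zebrafish embryos at 48 h post-fertilisation (hpf). All embryos were F1 NRE-eGFP/HS5-mCherry animals, in which a human PAX6 enhancer, NRE, drives eGFP and another, HS5, drives mCherry, and all were kept in PTU, which blocks pigment, from 12 hpf. There were 3 mCherry-enriched libraries and 3 eGFP-enriched libraries, the latter sorted for eGFP. By the study's account cells were sorted in 3 rounds, each of which gave 1 library of either kind. The mCherry sample of round 1 held double-positive cells, while in the later rounds every mCherry-positive cell was taken, so the 3 are not strict repeats of 1 sort, and the labels do not tie replicate numbers to rounds. Each library came from pooled eyes of many embryos, so the spread between libraries is a spread between pools.

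Voltage-gated sodium channels carry the upstroke of the action potential, voltage-gated calcium channels couple depolarisation to transmitter release, and potassium channels repolarise the cell or set its resting potential. In the retina, ganglion cells fire trains of action potentials along the optic nerve, many amacrine cells also spike, and photoreceptors and bipolar cells mostly signal by graded voltage changes and release glutamate at ribbon synapses through L-type calcium channels. Müller glia are known for inward rectifier potassium channels that buffer potassium, and retinal progenitors have yet to acquire the membrane properties of neurons. Many of the pore subunits work with auxiliary subunits, so the genes are described below by role: pores, partner subunits and silent subunits, which conduct only when assembled with another pore.

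Barcodes with at least 1000 genes and at most 10% mitochondrial UMIs were kept, which gave 5606 cells. A cell was placed in a class when at least 3 markers of that class each had at least 2 UMIs and the class led every other list by at least 2 markers. No channel gene was among the markers. The gate took 3425 cells (61.1%) as retinal: 512 ganglion, 550 amacrine, 930 bipolar, 195 photoreceptor, 1073 progenitor, 107 glial and 58 horizontal. A further 360 cells matched other tissues and 1821 were left without a class. The unclassed cells held 11243 of the 19972 channel UMIs, so the levels below describe the cells that the markers could place. Of the lists for the 6 classes described here, the defining markers were highest in their own class except mki67 and top2a of the progenitor list, which were highest in horizontal-gated cells.

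The libraries differed in size. eGFP-enriched 1 and eGFP-enriched 3 held 2027 and 2303 of the kept cells, and eGFP-enriched 2 held 85. Total UMIs per library ranged from 14307132 to 86803928 and median UMIs per kept cell from 5017 to 12222. No library pair shared more than 1 kept barcode. A level is given as CPM, the UMIs of a gene per 1000000 UMIs of the gated cells of a class in a library. Libraries in which fewer than 10 cells of a class were gated were left out for that class, which left 5 libraries for ganglion and amacrine cells, 6 for bipolar and progenitor cells and 4 for photoreceptor and glial cells. Barcodes of at most 100 UMIs, which hold free RNA rather than cells, were the background. In photoreceptor-gated cells the cycling genes *top2a* and *mki67* were at 405.5 and 885 CPM, against 341.6 and 940.7 in progenitor-gated cells, and their part in the results was not tested.

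The channel genes were sparse. A UMI was found for 161 of the 175 in the kept cells and for 146 in the 6 classes, 70 had at least 20 UMIs there, and 22 had at least 100. The 20 with the most UMIs held 64.0% of the 8120 channel UMIs in the 6 classes. Of the 70, 41 had their highest mean level in ganglion-gated cells, 10 in bipolar-gated, 8 in amacrine-gated, 6 in glial-gated, 5 in photoreceptor-gated and 0 in progenitor-gated cells. A gene can reach 20 UMIs through the class where it is high, which favours classes with many channel UMIs. The same shares over all genes were not counted. The 6 had glial-gated means of 1.14 (*kcnk5b*) to 8.21 CPM (*kcne4*), where 3 UMIs in that class are 4.40 CPM.

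The summed level of all 175 genes ordered the classes. It was 726 ± 195 CPM in ganglion-gated cells (SD, n = 5), with a range of 545 to 1014. It was 322 ± 60.5 CPM in amacrine-gated cells (n = 5) and 246 ± 55.0 in bipolar-gated cells (n = 6). Every ganglion-gated sum was above every sum of any other class, whereas the amacrine and bipolar ranges overlapped. Photoreceptor-gated cells had 164 ± 77.8 CPM (n = 4), glial-gated cells 157 ± 84.9 (n = 4) and progenitor-gated cells 58.5 ± 21.7 (n = 6). The photoreceptor and glial ranges overlapped each other and those of amacrine and bipolar cells, and free RNA had 98.8 ± 41.0 CPM over the 6 libraries. The progenitor sum was therefore not above the free RNA. Free RNA ranged from 44.3 to 148 CPM, which also overlapped the photoreceptor-gated range (77.8 to 266) and the glial-gated range (85.7 to 280). The median UMI count per cell was 9346 in progenitor-gated, 7183 in amacrine-gated, 7088 in ganglion-gated, 5929 in glial-gated, 5723 in photoreceptor-gated and 3802.5 in bipolar-gated cells. The part of depth in these sums was not tested.

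**Figure D1:**
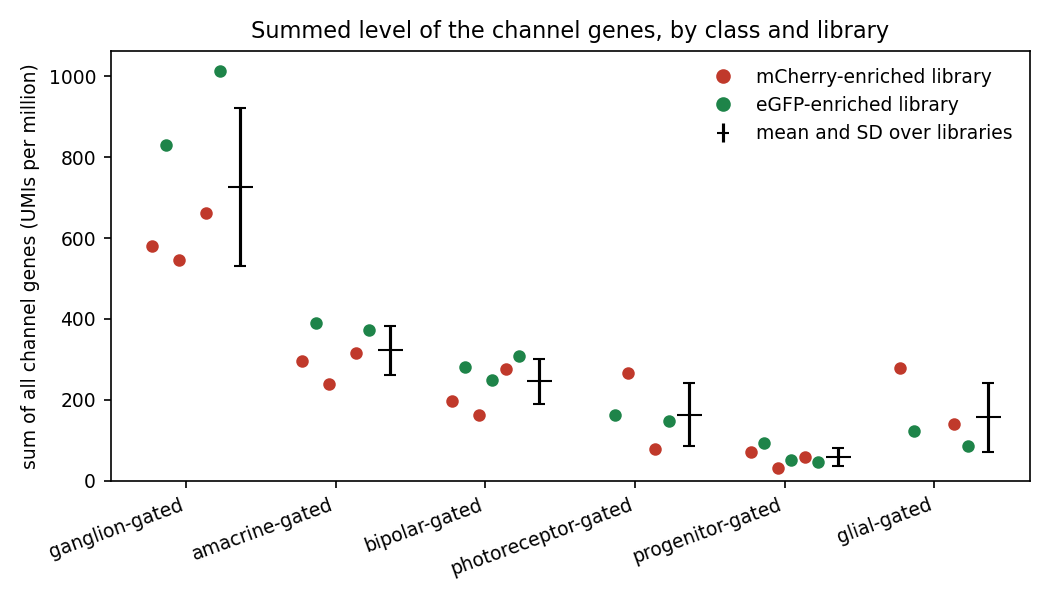
Summed level of the 175 channel genes in CPM (vertical axis) in each gated class (horizontal axis), with 1 point per library and the mean and SD over libraries in black. The 5 ganglion-gated points lie between 545 and 1014, above all points of the other classes, and the progenitor-gated mean is 58.5.

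Ganglion-gated cells had higher levels of many channel genes than the other retinal cells, among them the tested sodium pores, most of the tested voltage-gated potassium pores and all tested calcium channel β subunits. Of the 70 channel genes tested against the other gated retinal cells of the same libraries, 44 were higher and 6 lower (edgeR quasi-likelihood test, adjusted p at most 0.05). Over all genes tested, 19.2% were higher and 21.1% lower. The median log2 fold change was 2.19 over the channel genes and -0.12 over all genes. By role, 3 of 3 tested sodium channel pores were higher, as were 5 of 5 calcium channel β subunits, 6 of 10 calcium channel pores and 13 of 17 voltage-gated potassium pores. The 6 lower included the A-type pore *kcna4* and the α2δ features *cacna2d4a_1* and *cacna2d4a_2*, and 3 of 7 auxiliary potassium subunits were higher. The lower calls were less stable than the higher ones. DESeq2 called 39 higher and 1 lower of 70, where 2214 and 2729 of all 14100 genes were called. Without eGFP-enriched 3, 33 were higher and 1 lower of 52, where 1848 and 2243 of all 12632 genes were called. Without eGFP-enriched 1, 33 were higher and 1 lower of 58, where 2105 and 2812 of all 13115 genes were called. Since ganglion-gated cells have the most channel UMIs, a filter on summed UMIs favours genes high in them, and without the filter 48 of 146 were higher and 6 lower, where 2496 and 3150 of all 20651 genes were called.

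Of the 8 sodium pore genes, 3 had enough UMIs to be tested. *scn8aa*, a sodium channel pore whose mammalian counterpart is concentrated where spikes start, had 45.4, 35.8 and 67.8 CPM in ganglion-gated cells of mCherry-enriched 1, 2 and 3 and 55.0 and 81.0 in eGFP-enriched 1 and 3. In amacrine-gated cells the same libraries gave 13.2, 29.8, 2.66, 12.2 and 10.7 CPM, so the classes did not overlap. The log2 fold change of *scn8aa* was 4.09 (SE 0.27, adjusted p = 1.37e-08) against the other retinal cells and 2.49 (SE 0.26, adjusted p = 2.73e-12) against amacrine-gated cells, and it was higher in 5 of 5 libraries in both. A UMI of *scn8aa* was seen in 34.8% of ganglion-gated cells (exact 95% interval 30.6 to 39.1), against 5.82% of amacrine-gated, 2.15% of bipolar-gated and 1.49% of progenitor-gated cells. It was seen in 0 of 142 mesenchyme-gated cells, whose median depth per library was 6946 to 10646 UMIs. The intervals cover counting error only.

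The other tested sodium pores were also higher in ganglion-gated cells. *scn8ab*, its paralogue, had 7.83 to 21.4 CPM in ganglion-gated cells and at most 3.39 in any amacrine-gated library (log2 fold change against amacrine cells 3.01, SE 0.54, adjusted p = 8.65e-06). *scn1lab* had 8.94 to 26.1 CPM in ganglion-gated cells and 0 to 6.05 in amacrine-gated cells (2.47, SE 0.41, adjusted p = 1.28e-06). Its paralogue *scn1laa* had 6 UMIs in the 6 classes, *scn5lab* had 15, *scn4ab* 7 and *scn12aa* 2. These were not tested, and none had its highest mean in ganglion-gated cells. Sodium β subunits, which modulate the pores and also act in adhesion, were spread differently: *scn1ba* and *scn2b* were higher in ganglion-gated cells, *scn2b* was also higher in bipolar-gated cells, and *scn3b* was higher in amacrine-gated cells. *scn3b* had 0 to 18.3 CPM in amacrine-gated cells against 0 to 11.0 in ganglion-gated cells, so these groups overlapped, and it did not pass between those 2 classes.

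Potassium pores of the A-type and delayed-rectifier families were among the genes higher in ganglion-gated cells. *kcnd3*, an A-type pore that opens below spike threshold, had 17.2, 4.47 and 5.21 CPM in ganglion-gated cells of mCherry-enriched 1, 2 and 3 and 35.2 and 59.0 in eGFP-enriched 1 and 3. In amacrine-gated cells it had 1 UMI in all, in eGFP-enriched 3. The ratio of pooled levels was 163 (counting interval 28.9 to 6476), and *kcnd3* was higher in 5 of 5 libraries, as its naming required (edgeR adjusted p = 3.59e-16). Its level within ganglion-gated cells was uneven, and both eGFP-enriched values were above the 3 mCherry-enriched ones. *kcna2a*, a delayed rectifier known from axons, was steadier, with 9.40, 13.4 and 13.0 CPM in mCherry-enriched 1, 2 and 3 and 7.42 and 11.6 in eGFP-enriched 1 and 3. It had 46 UMIs in ganglion-gated cells and 1 in all other retinal cells of those libraries, a ratio of 257 (counting interval 43.9 to 10370; adjusted p = 1.30e-06). *kcnq2b*, a subunit of the M-current that limits repetitive firing, had 7.82 to 26.6 CPM in ganglion-gated cells and 0 to 2.71 in amacrine-gated cells (log2 fold change 3.03, SE 0.47, adjusted p = 3.56e-07). *kcnc1a*, a fast delayed rectifier of neurons that fire at high rates, had 6.27 to 32.4 and 0 to 2.71 CPM (3.30, SE 0.49, adjusted p = 8.86e-08).

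Of the calcium channel pores, 6 of 10 tested were higher in ganglion-gated cells and 0 lower. *cacna1ab*, a P/Q-type pore, had 14.1, 8.94 and 18.2 CPM in ganglion-gated cells of mCherry-enriched 1, 2 and 3 and 34.6 and 37.0 in eGFP-enriched 1 and 3. Amacrine-gated cells had 1 UMI, a ratio of 130 (counting interval 23.0 to 5173; edgeR adjusted p = 3.00e-14). Its paralogue *cacna1aa* had 43 UMIs in ganglion-gated and 1 in amacrine-gated cells. *cacna1bb*, an N-type pore, was among those that did not pass in ganglion-gated cells (adjusted p = 0.636), and was higher in amacrine-gated cells (log2 fold change 3.07, SE 0.60, adjusted p = 0.000140, higher in 3 of 5 libraries). Cytoplasmic β subunits carry the pores to the membrane: *cacnb3b* had 3.13 to 23.2 CPM in ganglion-gated cells and 0 to 1.86 in amacrine-gated cells (log2 fold change 4.26, SE 0.59, adjusted p = 1.41e-08). *cacnb2a* had 14.8 to 22.4 CPM in ganglion-gated cells, and in amacrine-gated cells was at 0 in 3 libraries at 2.66 in mCherry-enriched 3 and at 19.9 in mCherry-enriched 2, where 18 cells were gated (82 against 3 UMIs, ratio 25.8, counting interval 8.51 to 128).

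Direct comparison of ganglion-gated with amacrine-gated cells, the other inner retinal class in which many cells spike, gave 31 higher and 2 lower of 49 tested, where 14.3% and 6.68% of all genes were called in those directions. The median log2 fold change was 1.55 over the channel genes and 0.03 over all genes. Here too the filter on summed UMIs favours genes high in ganglion-gated cells, which have more channel UMIs. Without the filter 33 were higher and 1 lower of 129, where 1547 and 695 of all 18291 genes were called. Without eGFP-enriched 3, 17 were higher and 1 lower of 31 that could be tested, where 994 and 399 of all 9424 genes were called. DESeq2 called 17 higher and 1 lower of 49, where 930 and 384 of all 10845 genes were called. The genes lower in ganglion-gated cells were *kcna4* and *kcnab1b*, described with the amacrine cells.

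**Figure D2:**
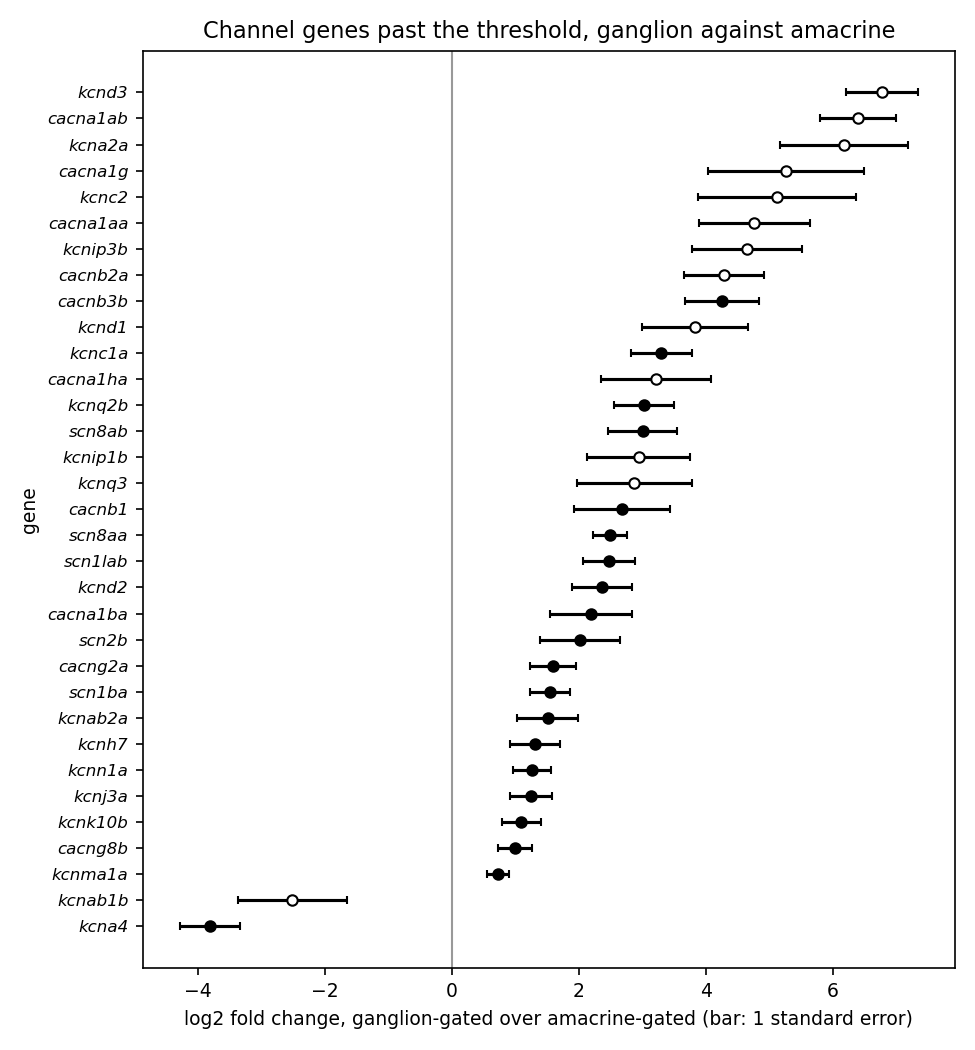
Log2 fold change of the 33 channel genes past the threshold, ganglion-gated over amacrine-gated cells (horizontal axis), with 1 standard error. Open points mark the 13 genes with at most 3 UMIs in one of the classes, whose fitted fold change depends on the added prior count. Only *kcna4* and *kcnab1b* lie left of 0.

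Fewer channel genes were called in amacrine-gated cells. Against the other retinal cells, 13 of 70 were higher and 14 lower, where 9.33% and 19.6% of all genes were called, and the median log2 fold change was -0.46 against -0.09 over all genes. The share lower was close to that of all genes. Without the filter on summed UMIs 11 were higher and 12 lower of 146, where 1176 and 2719 of all 20651 genes were called. Without eGFP-enriched 3 the numbers fell to 6 higher and 3 lower of 52 tested, where 624 and 1820 of all 12632 genes were called. DESeq2 called 9 higher and 3 lower of 70, where 835 and 1977 of all 14100 genes were called. *kcna4*, an A-type pore of the Shaker family, stood out among the amacrine genes. It had 35.3, 0 and 26.6 CPM in amacrine-gated cells of mCherry-enriched 1, 2 and 3 and 21.7 and 21.9 in eGFP-enriched 1 and 3. In ganglion-gated cells it had 3.13, 0, 2.61, 1.24 and 1.16 CPM in the same libraries. Amacrine-gated levels were above ganglion-gated ones in 4 of 5 libraries and both were at 0 in mCherry-enriched 2 (log2 fold change, ganglion over amacrine, -3.81, SE 0.47, adjusted p = 9.12e-10). A UMI of *kcna4* was seen in 14.4% of amacrine-gated and 1.37% of ganglion-gated cells, and in 0 of 142 mesenchyme-gated cells. *kcnab1b*, a β subunit of Shaker-type channels, was also lower in ganglion-gated than in amacrine-gated cells, with 3 against 21 UMIs, a ratio of 7.43 (counting interval 2.22 to 38.9). The direction of *kcnab1b* held in 3 of 5 libraries.

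Of the 15 γ genes 4 were tested, of which 3 were higher in ganglion-gated and 2 in amacrine-gated cells. *cacng3b* and *cacng8b* are named as calcium channel γ subunits, but in mammals these members are known chiefly as auxiliary subunits of AMPA-type glutamate receptors. *cacng3b* had 61.8, 9.93 and 45.1 CPM in amacrine-gated cells of mCherry-enriched 1, 2 and 3 and 52.3 and 60.0 in eGFP-enriched 1 and 3, and 23.5 to 61.9 in ganglion-gated cells. It was higher than in the other retinal cells in both classes and did not pass between them (adjusted p = 0.606). *cacng2a* and *cacng8b* were higher in ganglion-gated than in amacrine-gated cells, by 1.60 (SE 0.36, adjusted p = 0.000346) and 0.99 (SE 0.27, adjusted p = 0.00343) on the log2 scale. Against the other retinal cells, *cacng8b* was higher in amacrine-gated cells by 0.93 on the log2 scale (SE 0.29, adjusted p = 0.0134), but this call was lost without eGFP-enriched 3 (adjusted p = 0.245) and with DESeq2 (adjusted p = 0.0645). *cacnb4b*, a β subunit, had 9.93 to 31.2 CPM in amacrine-gated cells and 13.4 to 43.4 in ganglion-gated cells, and was higher in both against the other retinal cells.

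The 14 genes lower in amacrine-gated cells included some, but not all, of those higher in ganglion-gated cells: *scn8aa* (adjusted p = 0.600) and *scn1lab* (adjusted p = 0.774) did not pass there. *kcnd3*, *kcna2a* and *cacna1ab* were lower, as above, and *kcna2a* lost the call without eGFP-enriched 3 (adjusted p = 0.0786). *cacna2d4a_2* was lower with 1 UMI against 77 in the other retinal cells, and *cacna1fa* had 0 against 27, but their calls were lost without eGFP-enriched 3 (adjusted p = 0.205 and 0.116), and that of *cacna1fa* also without mCherry-enriched 1 (0.0527) or mCherry-enriched 2 (0.0698).

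**Figure D3:**
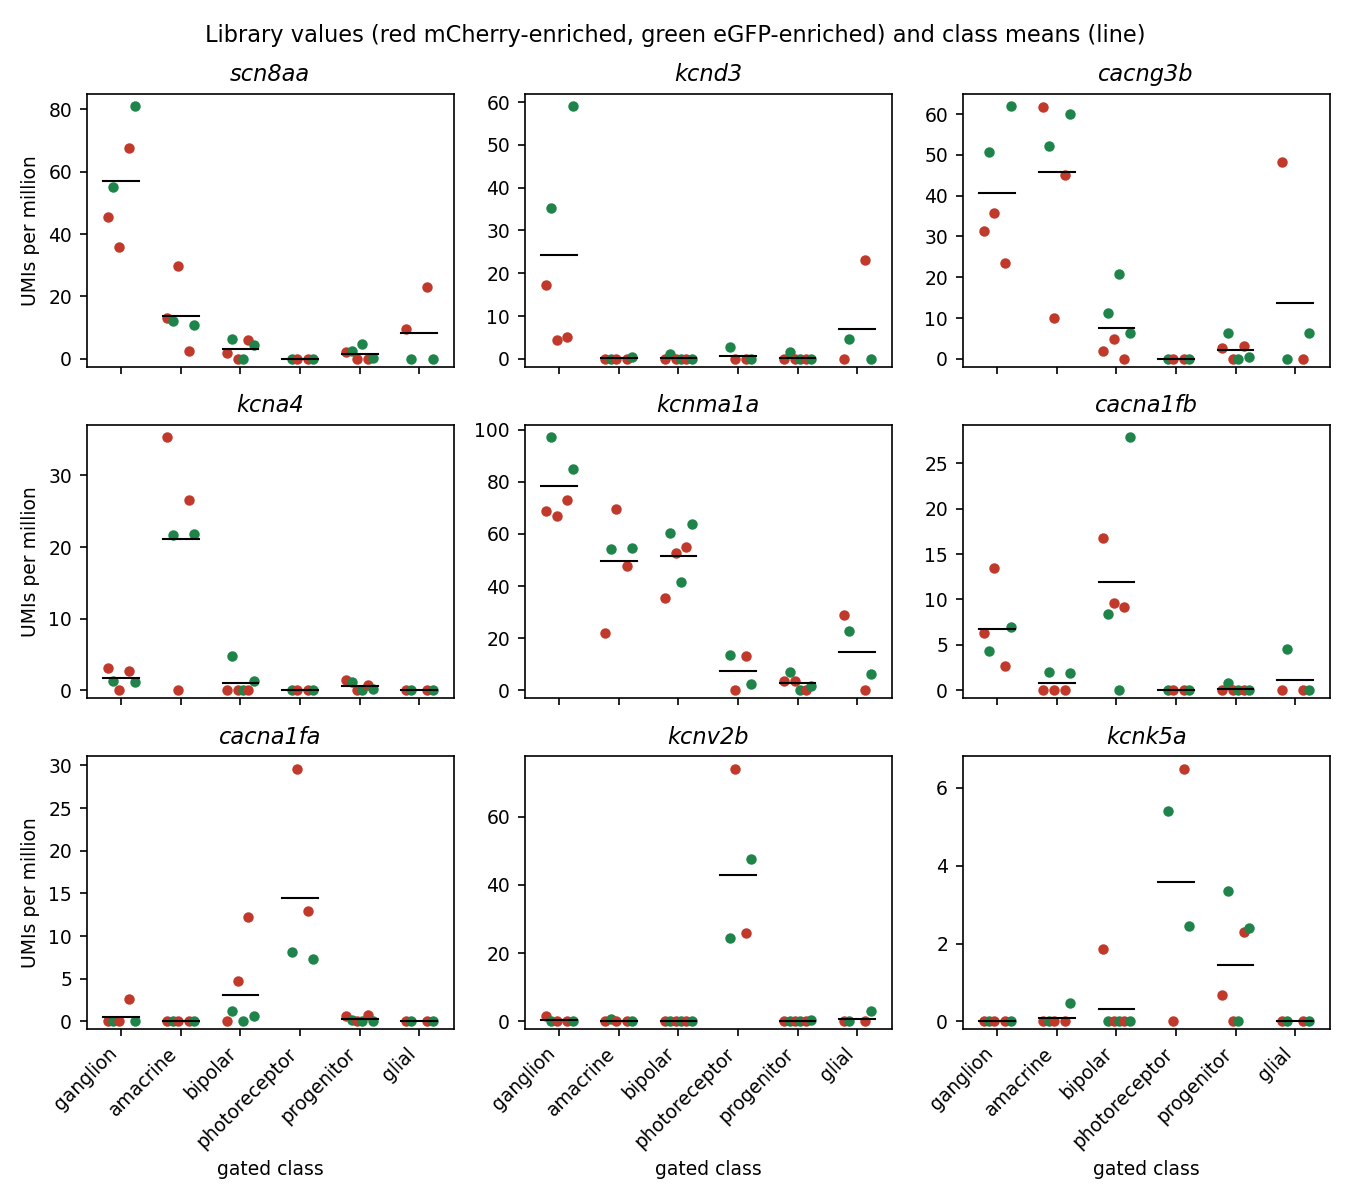
Levels of 9 channel genes in CPM (vertical axes, each with its own scale) in the 6 gated classes (horizontal axes), with 1 point per library, red for mCherry-enriched and green for eGFP-enriched, and a line at the class mean. *scn8aa* and *kcnd3* are high in ganglion-gated cells, *kcna4* in amacrine-gated cells, *cacna1fb* in bipolar-gated and ganglion-gated cells and *cacna1fa* and *kcnv2b* in photoreceptor-gated cells.

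Bipolar-gated cells had an L-type pore, its α2δ partners and a few potassium channel genes above the other retinal cells. Of 71 tested, 10 were higher and 15 lower, where 16% and 20.7% of all genes were called, so the channel genes were called about as often as genes in general. The median log2 fold change was -0.89 against -0.10 over all genes. *cacna1fb*, an L-type pore of the kind found at ribbon synapses, had 16.8, 9.59 and 9.17 CPM in bipolar-gated cells of mCherry-enriched 1, 2 and 3 and 8.39, 0 and 27.9 in eGFP-enriched 1, 2 and 3. It was higher than in the other retinal cells in 5 of 6 libraries, with no UMI in the 12 bipolar-gated cells of eGFP-enriched 2 (log2 fold change 3.21, SE 0.39, adjusted p = 2.43e-10). *cacna1fb* also had 2.61 to 13.4 CPM in ganglion-gated cells, which overlapped the bipolar range.

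All of the α2δ genes tested for the subunit type that partners this pore in the mouse were higher in bipolar-gated cells. *cacna2d4a_1* had 0 to 15.2 CPM (log2 fold change 4.68, SE 0.59, adjusted p = 6.22e-10), *cacna2d4a_2* had 0 to 24.7 (5.09, SE 0.52, adjusted p = 8.67e-13) and *cacna2d4b* had 0 to 14.4 (3.47, SE 0.72, adjusted p = 7.46e-05). The value of 0 came from eGFP-enriched 2 in each. The 7 α2δ genes together had 27.0 ± 17.3 CPM in bipolar-gated cells (SD, n = 6, range 0 to 46.8). In photoreceptor-gated cells they had 15.3 ± 19.8 CPM (n = 4, range 0 to 44.4), so these classes overlapped. Of 2 α2δ features tested between these classes, only *cacna2d4a_2* passed, higher in bipolar-gated cells. *cacna2d4a_1* and *cacna2d4a_2* share a symbol, and reads could be split between them, so their separate levels are uncertain. In ganglion-gated cells *cacna2d4a_2* had 0 UMIs against 78 in the other retinal cells, at least 4.65-fold lower at a floor of 3 UMIs over the group. *cacna2d4a_1* was also lower there, with 1 UMI against 50, but this call was lost with DESeq2 and without eGFP-enriched 1 (adjusted p = 0.0854), mCherry-enriched 3 (0.0584) or eGFP-enriched 3 (0.234).

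*kcnma1a*, the large-conductance calcium-activated potassium channel, was shared by the inner retinal classes. It had 35.5, 52.7 and 55.0 CPM in bipolar-gated cells of mCherry-enriched 1, 2 and 3 and 60.4, 41.6 and 63.9 in eGFP-enriched 1, 2 and 3. Ganglion-gated cells had 67.1 to 97.1 CPM, above every bipolar-gated value, and amacrine-gated cells 22.1 to 69.5. It was the one channel gene higher than the other retinal cells in all 3 of these classes, by 1.85 (SE 0.18) in ganglion-gated, 0.77 (SE 0.20) in amacrine-gated and 1.01 (SE 0.19) in bipolar-gated cells on the log2 scale, with adjusted p = 8.00e-07, 0.00248 and 1.68e-05. A UMI of *kcnma1a* was seen in 23.0% of bipolar-gated and 3.36% of progenitor-gated cells, and in 0 of 142 mesenchyme-gated cells. *kcnab2a*, a β subunit of Shaker-type pores, was higher in bipolar-gated cells in 6 of 6 libraries (1.28, SE 0.29, adjusted p = 0.000226). *kcnip2*, a calcium-binding partner of A-type pores, had 0 to 10.8 CPM in bipolar-gated cells (3.98, SE 0.56, adjusted p = 1.39e-08) although the A-type pore *kcnd3* was lower there (3 UMIs, ratio 12.7, counting interval 4.28 to 62.1). *kcnq2b* (2 UMIs, ratio 11.1, counting interval 2.99 to 92.5), *scn1lab*, *kcnj3a*, a G-protein-gated inward rectifier, and *kcnc1a* were lower as well. Of these, *scn1lab* and *kcnc1a* lost the call without eGFP-enriched 3 (adjusted p = 0.0540 and 0.377) and *kcnj3a* without eGFP-enriched 1 (0.0509).

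Photoreceptor-gated cells had a short list of channel genes above the rest, led by silent potassium channel subunits. The summed level of the silent subunits was 52.7 ± 24.97 CPM (SD, n = 4) there and at most 3.33 on average in any other class. Of 66 channel genes tested, 4 were higher and 15 lower, where 7.41% and 14.5% of all genes were called, and the median log2 fold change was -2.65 against -0.34 over all genes. Here too the filter on summed UMIs favours genes high in other classes. Without the filter 4 were higher and 15 lower of 144, where 1064 and 2045 of all 20513 genes were called. Without eGFP-enriched 3, which held 125 of the 195 cells, 2 were higher and 3 lower of 46 tested, where 556 and 817 of all 12186 genes were called. DESeq2 called 4 higher and 3 lower of 66, where 848 and 1216 of all 13854 genes were called. The 4 higher were *kcnv2a* and *kcnv2b*, silent subunits whose human counterpart is a retinal dystrophy gene, *kcnb2*, a delayed-rectifier pore of the family with which they assemble, and *cacna1fa*, an L-type pore. *kcnv2b* had 74.0 and 25.9 CPM in photoreceptor-gated cells of mCherry-enriched 2 and 3 and 24.4 and 47.7 in eGFP-enriched 1 and 3. No other class exceeded 3.17 CPM in any library, so the groups did not overlap (log2 fold change 7.25, SE 0.64, adjusted p = 1.76e-27). A UMI of *kcnv2b* was seen in 22.1% of photoreceptor-gated cells, against 0 of 930 bipolar-gated cells and 0.280% of progenitor-gated cells.

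*kcnv2a* had 0 and 6.49 CPM in photoreceptor-gated cells of mCherry-enriched 2 and 3 and 5.41 and 25.7 in eGFP-enriched 1 and 3, a range that overlapped the 0 to 5.61 CPM of bipolar-gated cells. Its call (log2 fold change 3.73, SE 0.67, adjusted p = 4.41e-07) was lost without eGFP-enriched 3 (adjusted p = 0.465). *kcnb2* had 88.8 and 0 CPM in photoreceptor-gated cells of mCherry-enriched 2 and 3 and 10.8 and 8.56 in eGFP-enriched 1 and 3, and its highest value came from 11 cells. It was higher in 3 of 4 libraries (3.91, SE 0.69, adjusted p = 2.54e-07). Of *kcnv2a*, *kcnv2b* and *kcnb2*, only *kcnv2b* was higher in 4 of 4 libraries, and the call of the pore rested on 17 UMIs.

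The L-type paralogues differed in opposite directions between the ribbon-synapse classes, though both calls were lost in some alternatives. *cacna1fa* had 29.6 and 13.0 CPM in photoreceptor-gated cells of mCherry-enriched 2 and 3 and 8.12 and 7.34 in eGFP-enriched 1 and 3. In bipolar-gated cells of the same libraries it had 4.79, 12.2, 1.20 and 0.633 CPM. It was lower in bipolar-gated than in photoreceptor-gated cells in 4 of 4 libraries, although the ranges overlapped (log2 fold change -2.04, SE 0.82, adjusted p = 0.0403). The call was lost with DESeq2 (adjusted p = 0.0906), a looser gate (0.235), a gate of at least 4 markers (0.0546) and no filter on summed UMIs (0.123). *cacna1fb* went the other way, with 0 UMIs in photoreceptor-gated and 70 in bipolar-gated cells, at least 7.12-fold higher in bipolar-gated cells at a floor of 3 UMIs (edgeR adjusted p = 4.23e-06), and this call was lost without eGFP-enriched 3 (adjusted p = 0.117). Between these classes 9 channel genes were higher and 4 lower in bipolar-gated cells of 21 tested, where 17.1% and 15.8% of all genes were called. The 9 included *cacna1fb*, *kcnma1a*, *scn2b* and *kcnab2a*, and the 4 were the genes higher in photoreceptor-gated cells. Bipolar-gated cells have more channel UMIs, so the filter on summed UMIs favours genes high in them. Without the filter 9 were higher and 3 lower of 103, where 1906 and 1234 of all 17618 genes were called. Without eGFP-enriched 3, 2 were higher and 0 lower of 11 tested, where 871 and 754 of all 8489 genes were called. *scn2b* (46 against 1 UMIs, ratio 14.0, counting interval 2.397 to 566) and *kcnab2a* (94 against 3 UMIs, ratio 9.56, counting interval 3.17 to 47.2) lost their calls without eGFP-enriched 3 (adjusted p = 0.0686 and 0.190).

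Among the 15 genes lower in photoreceptor-gated cells, several had no UMI at all. *scn8aa* had 0 UMIs where the other retinal cells had 347, at least 6.32-fold lower, *cacng3b* 0 against 511, at least 9.30-fold lower, and *kcnk10b*, a two-pore leak channel, 0 against 161, at least 2.93-fold lower. *scn1lab* (0 against 119) and *cacna1fb* (0 against 106) were bounded at 2.17-fold and 1.93-fold. All 3 tested sodium pores were lower. Only the bounds are stated because 3 UMIs in this class correspond to 2.13 CPM, and without eGFP-enriched 3 the calls of *kcnk10b* (adjusted p = 0.165), *scn1lab* (0.313) and *cacna1fb* (0.402) were lost. A looser gate, which asked for a lead of 1 marker, ended the same calls (adjusted p = 0.0692, 0.163 and 0.0993).

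**Figure D4:**
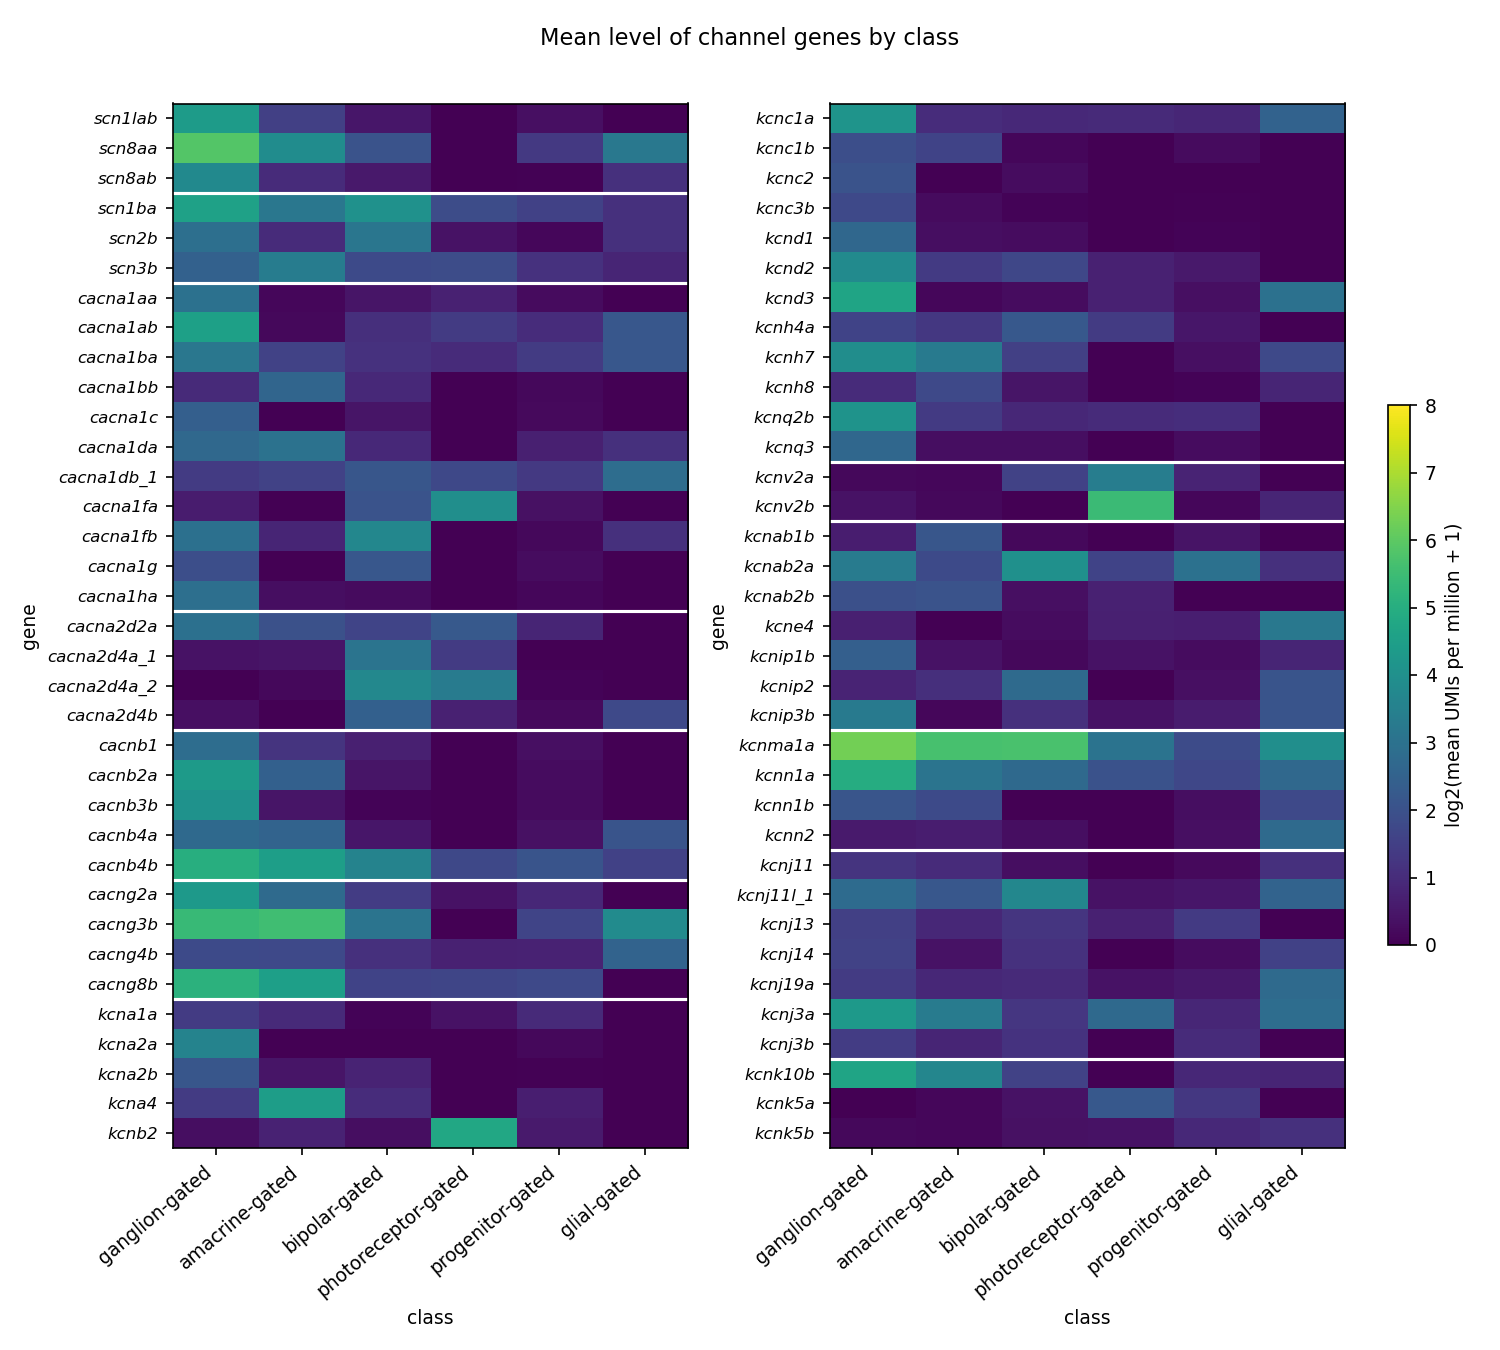
Mean level over libraries, as log2(CPM + 1) in colour, of the 70 channel genes with at least 20 UMIs (vertical axis) in the 6 gated classes (horizontal axis). White lines separate the roles, from sodium pores at the top left to two-pore channels at the bottom right. The brightest column is ganglion-gated cells, and *kcnv2b* and *kcnb2* stand out in photoreceptor-gated cells.

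Progenitor-gated cells were low in nearly every channel gene. Of 71 tested, 2 were higher and 53 lower, where 25.3% and 28.9% of all genes were called, and the median log2 fold change was -2.69 against -0.07 over all genes. The filter on summed UMIs admits many genes through the classes where they are high, which favours lower calls here. Without the filter 1 was higher and 53 lower of 146, where 3385 and 4072 of all 20664 genes were called. All 3 tested sodium pores, all 3 sodium β subunits, all 5 calcium β subunits and 14 of 17 voltage-gated potassium pores were lower. *scn8aa* had 0 to 4.61 CPM in progenitor-gated cells (log2 fold change -3.82, SE 0.41, adjusted p = 1.38e-07), and *scn1lab* 0 to 0.789 (-3.96, SE 0.55, adjusted p = 4.38e-06). *cacna1ab* (-3.92, SE 0.48) and *kcnd3* (-3.81, SE 0.56) fell as far below, and *scn8ab* had 1 UMI against 87, a ratio of 71.2 (counting interval 12.4 to 2844). All 5 were lower in 6 of 6 libraries, as the naming rule given below required of those not named in advance. The 8 sodium pores summed to 2.45 ± 2.09 CPM in progenitor-gated cells and 6.13 ± 4.08 in free RNA (SD, n = 6 each). The 2 higher were *kcnk5a* and *kcnk5b*, two-pore potassium channels that open in alkaline conditions in mammals. *kcnk5a* had 0.687, 0 and 2.29 CPM in progenitor-gated cells of mCherry-enriched 1, 2 and 3 and 3.35, 0 and 2.397 in eGFP-enriched 1, 2 and 3, on 34 UMIs. The log2 fold change of *kcnk5a* was 2.63 (SE 0.63, adjusted p = 0.00172) and that of *kcnk5b* 2.06 (SE 0.69, adjusted p = 0.0173), each higher in 4 of 6 libraries, and DESeq2 called neither. In free RNA *kcnk5a* averaged 1.44 CPM and *kcnk5b* reached 12.1 CPM, so neither was above that background in progenitor-gated cells, whose means were 1.46 and 0.890. *kcnk5a* also had 5 UMIs in photoreceptor-gated cells, where its mean of 3.59 ± 2.94 CPM (n = 4) was above that of progenitor-gated cells.

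Glial-gated cells had too few cells to describe gene by gene. Of 68 tested, 0 were higher and 4 lower, where 7.04% and 12.1% of all genes were called, and the 4 were *cacnb4b*, *cacng8b*, *kcnma1a* and *scn8aa*. At an unadjusted p under 0.05, 13 passed in either direction, against 3989 of all 14029 genes. DESeq2 called 0 of 68, where 896 higher and 851 lower of all 14029 genes were called. Without eGFP-enriched 1, 0 of 56 were called, where 672 and 1057 of all 13009 genes were called. Without eGFP-enriched 3, 0 of 47 were called, where 448 and 813 of all 12524 genes were called. The filter on summed UMIs admits many genes through other classes. Without the filter 1 was higher and 4 lower of 146, where 954 and 1646 of all 20600 genes were called. *cacng8b* had 0 UMIs against 294, at least 2.33-fold lower. *kcnj10a*, the inward rectifier that marks mature Müller glia in mammals, had 0 UMIs in all 6 classes and 10 in the kept cells, all of them outside the gated retinal cells. In the 107 glial-gated cells a count of 0 allows a share of up to 2.80% of cells with a UMI and a level of up to 4.40 CPM. *kcnj13*, an inward rectifier of retinal pigment epithelium and Müller glia in mammals, had 0 UMIs in glial-gated and 18 in progenitor-gated cells and passed in no class.

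The sorts were compared with the class mixture pooled and within classes. Over all gated retinal cells, 0 of 71 channel genes differed between 3 mCherry-enriched and 3 eGFP-enriched libraries (edgeR quasi-likelihood test), where 0% of all genes were called. At an unadjusted p under 0.05, 6 channel genes and 422 of all 14123 genes passed, and DESeq2 called 0. The median log2 fold change, mCherry over eGFP, was -0.31 over the channel genes, of which 19 of 71 were above 0, and -0.01 over all genes. *kcnd3* was the one with the lowest p, at 1.07 to 3.62 CPM in mCherry-enriched and 2.93 to 8.35 in eGFP-enriched libraries (log2 fold change -1.63, SE 0.48, adjusted p = 1.00), and the groups overlapped. *cacna1fa* had 0.658 to 3.199 CPM in mCherry-enriched and 0 to 0.618 in eGFP-enriched libraries, which did not overlap (1.83, SE 0.76, adjusted p = 1.00). Within bipolar-gated cells 0 of 15 passed, where 0.0962% of all genes were called in either direction, with 3 at an unadjusted p under 0.05, against 236 of all 9353 genes, and 0 by DESeq2. The median was -0.39 over the channel genes and 0.01 over all genes. Of these *kcnab2a* had 7.47 to 9.59 CPM in mCherry-enriched and 20.3 to 22.8 in eGFP-enriched libraries, which did not overlap (-1.31, SE 0.54, adjusted p = 0.999). Within progenitor-gated cells 0 of 11 passed, with 0 at an unadjusted p under 0.05 and 0 by DESeq2. The remaining classes had fewer than 10 cells in at least 1 library and were not compared between sorts.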

How the data were processed

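The deposited values are raw, unnormalised UMI counts of every barcode, which the authors obtained from 10x 3′ v3.1 libraries by Cell Ranger, using GRCz11 supplemented with both reporter sequences. The submitters' processing notes name Cell Ranger 6.1.2 and the file headers Cell Ranger 4. Barcodes with at least 1000 genes and at most 10% mitochondrial UMIs were kept, and neither free RNA nor doublets were removed. Classes were gated with 16 marker lists, and the gate rule was set after the marker counts had been seen. The channel genes, lists and tests were chosen with earlier results of these data known.

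UMIs were summed per library and class and tested with edgeR 4.0.16 in R 4.3.3 (TMM, quasi-likelihood, genes with at least 20 UMIs, Benjamini-Hochberg over all genes tested, threshold 0.05), with the library as a covariate in class comparisons. DESeq2 1.42.0 was an alternative. Rounds of sorting are described but not tied to replicate numbers, and p-values measure the spread between these libraries. Named genes were, per comparison, up to 5 with the highest and up to 5 with the lowest fold change among those past the threshold with 1 direction in every library, plus 9 named whatever their values. For genes named by fold change, a direction shared by every library is a condition of naming and not further support. Other genes were named after their values were seen. 3′ UMIs were not divided by gene length, so levels are compared within a gene. Fits were tested on simulated data.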

Additional observations from a re-analysis of the deposited data

How the results depend on the processing

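The 64 results on single genes were recomputed in 839 alternatives: 748 kept their direction and side of the threshold, 91 lost the call and 0 reversed. Alternatives in which the gene could not be tested are not among the 839 and were not counted as lost. The count of channel genes called stayed within 1.5 times in 135 of 159 alternatives. These include the comparisons between sorts, where 0 were called in the main setting and in every alternative. The share for the class comparisons alone was therefore lower. With each cell thinned to 1000 UMIs, fewer channel genes could be tested: the calls were 8 of 14 in ganglion-gated (50 of 70 unthinned), 4 of 14 in amacrine-gated (27 of 70), 9 of 15 in bipolar-gated (25 of 71), 2 of 14 in photoreceptor-gated (19 of 66), 10 of 15 in progenitor-gated (55 of 71) and 1 of 13 in glial-gated cells (4 of 68), 3 of 9 between ganglion-gated and amacrine-gated cells (33 of 49) and 1 of 3 between bipolar-gated and photoreceptor-gated cells (13 of 21). Thinned ganglion-gated cells had 8 channel genes higher and 0 lower. With DESeq2 the count was 12 in amacrine-gated, 7 in photoreceptor-gated, 34 in progenitor-gated and 0 in glial-gated cells. It was 18 between ganglion-gated and amacrine-gated and 4 between bipolar-gated and photoreceptor-gated cells. Of all genes DESeq2 called 2880 higher and 3582 lower of 14123 in progenitor-gated cells. Between bipolar-gated and photoreceptor-gated cells DESeq2 called 1106 and 1023 of 9886. Calls over all genes fell too: in ganglion-gated cells from 2712 higher and 2971 lower of 14100 to 789 and 1525 of 8680 when thinned, and to 2214 and 2729 of 14100 with DESeq2. At least 1500 genes per cell gave 2 of 62 in glial-gated cells (847 higher and 1400 lower of all 13545 genes). Between bipolar-gated and photoreceptor-gated cells this setting gave 7 of 13 (1223 and 1095 of 8819). At most 5% mitochondrial UMIs gave 2 of 68 in glial-gated cells (986 and 1641 of 13979). RLE size factors also gave 2 of 68 there (1144 and 1383 of 14029). Leaving out 1 library gave 34 to 46 in ganglion-gated, 9 to 24 in amacrine-gated, 20 to 26 in bipolar-gated, 5 to 15 in photoreceptor-gated, 39 to 54 in progenitor-gated and 0 to 4 in glial-gated cells. Between ganglion-gated and amacrine-gated cells it gave 18 to 34, and between bipolar-gated and photoreceptor-gated cells 2 to 11. In every class comparison the lowest count came without eGFP-enriched 3. That count was equalled without eGFP-enriched 1 in ganglion-gated and glial-gated cells. Leaving out a library also changed how many channel genes could be tested. Without eGFP-enriched 3 the count was 20 of 52 in bipolar-gated cells (1557 higher and 2096 lower of all 12679 genes). In progenitor-gated cells it was 39 of 52 (2830 and 3198 of 12679). The looser gate was chosen after seeing the data. In the comparisons between sorts the count was 0 in every alternative, and 0 channel genes could be tested between sorts in thinned progenitor-gated cells.

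Deviations of libraries with the same number had r = 0.18, 0.0541 and 0.0607 over 6844 genes, against -0.11 to 0.0311 for different numbers. Each mCherry-enriched library correlated best with its own number. The values were small, and the numbers were not taken as pairs. Cells were sorted in 3 rounds of 1 library of each kind, and whether a number is a round is not given in the labels. A replicate block called 0 channel genes in all 3 comparisons between sorts. Over all genes the block called more than the fit without it. In all gated retinal cells it called 18 higher and 28 lower of 14123, against 0 and 0. In bipolar-gated cells it called 24 and 21 of 9353, against 8 and 1. In progenitor-gated cells it called 1 and 1 of 11294, against 0 and 0. Depth limits the photoreceptor and glial classes, where 3 UMIs are 2.13 and 4.40 CPM. In simulated data with dispersions as uneven among genes as those estimated here, more than the nominal share of calls was false, so calls near the threshold are less certain.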

Other observations

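Genes that work with these channels were counted from a list of pacemaker and leak channels, ankyrins, spectrins, FGF homologous factors, the potassium channel partners dpp6, dpp10 and cntnap2, and sodium pump subunits, of which 34 of 39 were in the files. In ganglion-gated cells 15 of 22 tested were higher and 3 lower than in the other retinal cells, where 19.2% and 21.1% of all genes were called. The higher genes included *ank3a* and *sptbn4a*, which anchor sodium channels at the axon initial segment in mammals. *ank3a* was also higher in bipolar-gated cells than in the other retinal cells, and *sptbn4a* had only 65 UMIs in all kept cells. In ganglion-gated against amacrine-gated cells, 14 of 21 were higher and 0 lower, where 14.3% and 6.68% of all genes were called. In progenitor-gated cells 1 was higher and 19 lower of 22, where 25.3% and 28.9% of all genes were called, the 1 being *atp1a1a.1*, a sodium pump subunit. Amacrine-gated, bipolar-gated and glial-gated cells each had 4 higher and 10 lower of 22, where 9.33%, 16% and 7.04% of all genes were higher and 19.6%, 20.7% and 12.1% lower. Photoreceptor-gated cells had 3 higher and 8 lower of 22 (7.41% and 14.5% of all genes). Between bipolar-gated and photoreceptor-gated cells 6 of 16 were higher and 3 lower (17.1% and 15.8%).

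Of the 9 channel symbols in capitals, CACNA2D1, a calcium channel α2δ subunit, had 20 UMIs in ganglion-gated cells (4.33 CPM) and KCNMA1 had 10 UMIs in bipolar-gated cells (1.92 CPM). The 7 others had at most 8 UMIs in a class. Among them KCNB2, a separate entry from *kcnb2*, had 8 UMIs in amacrine-gated, 4 in ganglion-gated and 0 in photoreceptor-gated cells. The unclassed cells had 206 to 299 CPM of channel genes over the 6 libraries.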
